A study of Homo sapiens with 9 samples.

Results

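Of 33 named p53 target genes, 29 were expressed highly enough to test in hypoxic SW480 colon cancer cells. They did not move as a block when the cells were given sulforaphane (SFN), an isothiocyanate from cruciferous vegetables, with or without 5-fluorouracil (5-FU), an antimetabolite that blocks thymidylate synthase and enters RNA and DNA. PMAIP1, AEN, TNFRSF10A, TRIAP1, TIGAR and PLK2 rose against control under each treatment. BTG2 fell from 13.7 ± 2.64 to 2.73 ± 1.04 FPKM and GDF15 from 29.6 ± 1.59 to 8.68 ± 1.31 FPKM with SFN (mean ± SD, n = 3). MDM2, which encodes the ubiquitin ligase that degrades p53, stayed between 2.23 and 2.93 FPKM in the 9 libraries.

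The members are 33 genes given by symbol: regulators that feed back on p53 and established targets for arrest, cell death and repair. Each was found as 1 row of a table of 41041 Ensembl gene IDs. SW480 is a line from a human colon adenocarcinoma that is known to carry mutant p53. Every group was kept at 1% O2 for 48 h. The groups are control cells without either drug, cells given 25 µM SFN, and cells given SFN with 5-FU (SFN+5-FU), with 3 libraries each that the study describes as biological replicates. The dose of 5-FU, and that of SFN in the combination, were not given in the sources used here. Among these samples, none was kept at ambient oxygen and none received 5-FU without SFN, so neither oxygen nor 5-FU by itself can be read from them. RNA was poly(A)-selected and sequenced in pairs, and levels are FPKM, fragments scaled to transcript length and library size, a unit that allows levels of different genes to be set side by side.

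p53 is a transcription factor that binds DNA as a tetramer and is kept low by MDM2 and MDM4. DNA damage and other stresses stabilise it, after which it raises genes for cell cycle arrest, apoptosis, DNA repair and its own inhibitors. Many of its targets have other inputs as well: ATF4 and DDIT3 (CHOP), factors of the integrated stress response, are known to act on several of them, among them GDF15, PMAIP1 and the death receptor TNFRSF10B. Mutant p53 in tumours has usually lost much of the sequence-specific binding of the normal protein.

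The promoters of the members were searched because p53 is known by the DNA it binds. RefSeq windows of 250 bases before the annotated starts (GRCh38.p14) were searched for 27 of the 33 genes, in 39 windows. GADD45A, PHLDA3, TP53INP1, TNFRSF10A, TNFRSF10B and RRM2B had no window at hand or lie on a chromosome left out of the search. The windows of that chromosome were left out of the comparison set as well. The p53 response element is a pair of 10-base sequences with a core of cytosine, a pair of A or T bases, and guanine. A single 10-base match on either strand occurred in 6 of the 39 member windows, 1 in each of 6 genes. It occurred in 5.57% of the 35116 windows of all genes outside the chromosome left out, called all windows here. A pair of such matches 0 to 13 bases apart was in 0 of the 39 member windows and in 0.0256% of all windows. Every base of each 10-base sequence had to fit the consensus. An element with a deviating base, or one outside the 250 bases, would be missed, so 0 does not show that a promoter lacks one. The windows of PLK2, AEN, RPS27L and FDXR are shown, with the 10-base match in capitals, because these 4 genes had a match before an annotated start and passed the filter on expression. PLK2 and AEN are among the genes described below as higher under each treatment, and FDXR as one without a called change.
PLK2, chr5:58460087-58460336, minus strand: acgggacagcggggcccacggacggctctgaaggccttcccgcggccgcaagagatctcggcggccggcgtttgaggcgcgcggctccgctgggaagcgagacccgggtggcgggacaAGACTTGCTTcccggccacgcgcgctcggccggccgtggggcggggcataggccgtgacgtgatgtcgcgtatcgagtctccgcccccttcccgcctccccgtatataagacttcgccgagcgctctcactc
AEN, chr15:88621090-88621339, plus strand: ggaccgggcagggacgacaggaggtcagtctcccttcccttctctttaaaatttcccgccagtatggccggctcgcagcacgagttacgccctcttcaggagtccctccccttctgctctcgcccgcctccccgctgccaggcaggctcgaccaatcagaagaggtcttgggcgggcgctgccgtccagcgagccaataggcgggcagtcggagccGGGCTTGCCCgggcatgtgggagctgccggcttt
RPS27L, chr15:63157478-63157727, minus strand: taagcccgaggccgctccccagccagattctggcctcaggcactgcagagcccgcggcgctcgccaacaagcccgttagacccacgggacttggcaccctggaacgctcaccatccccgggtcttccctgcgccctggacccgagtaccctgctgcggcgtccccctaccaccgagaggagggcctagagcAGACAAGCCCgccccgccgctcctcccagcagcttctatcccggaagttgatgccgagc
FDXR, chr17:74872995-74873244, minus strand: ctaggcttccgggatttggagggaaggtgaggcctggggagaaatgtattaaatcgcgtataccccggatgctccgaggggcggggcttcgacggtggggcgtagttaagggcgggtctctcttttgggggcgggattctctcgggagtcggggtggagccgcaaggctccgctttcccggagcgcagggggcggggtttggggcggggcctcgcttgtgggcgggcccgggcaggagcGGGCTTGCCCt
The match began 132 bases before the start in PLK2, 34 in AEN, 59 in RPS27L and 11 in FDXR. The other matches lay at 1 alternative start each of FAS and SESN1, whose levels were below the filter. The antioxidant response element core TGACNNNGC, the sequence bound by NRF2, was in 8 of the 39 member windows on either strand, from the 6 genes MDM2, BAX, FAS, EDA2R, XPC and SESN1, and in 10.9% of all windows. TGATGCAA, an element of C/EBP and ATF factors, was in 0 of the 39 member windows and in 0.772% of all. These matches describe letters in short windows and show no binding.

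The library labelled SFN replicate 2 stood apart from its group. Across the tested genes its log2 values correlated at 0.993 with each SFN+5-FU library but at 0.963 and 0.968 with SFN replicates 1 and 3, which correlated with each other at 0.990. For 29 of 29 tested members, and for 82.6% of the 12662 tested genes, it lay nearer to the SFN+5-FU mean than to the mean of the other SFN libraries. It is kept in its labelled group here, and results that it moved most are also given without it. The summed level of 10 colon epithelial markers, highest among them KRT8, KRT18 and KRT19, ran from 2554 to 2598 FPKM in control. It was 1770 to 2385 in SFN and 1709 to 1722 in SFN+5-FU. Of these markers KRT20 (0.05 to 1.39 FPKM) and CEACAM5 (0.06 to 0.15) did not pass the filter, and 8 did. With SFN 0 rose and 4 fell, and with SFN+5-FU 0 rose and 7 fell, or 50.0% and 87.5%. Of the tested genes 50.0% and 66.2% were called, 22.5% and 28.0% lower. Their part in the results below was not tested. The summed leukocyte markers reached at most 5.15 FPKM in any library, the fibroblast markers 2.06 and the endothelial markers 0.92. PTPRC and CDH5, a leukocyte and an endothelial marker, were listed at 0 in the 9 libraries. From these lists CD14 (0.86 to 1.98 FPKM), LYZ (0.76 to 3.48) and COL1A1 (0.57 to 1.99) passed the filter. In bulk RNA, fewer cells with a transcript and less of it per cell cannot be told apart.

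Genes were tested where the mean over the 9 libraries reached 1 FPKM, with limma on log2(FPKM + 1). A gene is called, and said to have risen or fallen, at a Benjamini-Hochberg adjusted p under 0.05 over the 12662 tested genes; fold changes are on the log2(FPKM + 1) scale, which understates those of low genes. With SFN against control, 6 of 29 members rose and 10 fell, or 55.2%. Of the tested genes 50.0% were called in that comparison, 27.5% higher and 22.5% lower, so the members' share was close to the background. The members' median log2 fold change was 0.03, against 0.05 for the tested genes. With SFN+5-FU against control, 13 members rose and 5 fell, or 62.1%, where 66.2% of the tested genes were called, 38.3% higher and 28.0% lower. The members' median was 0.11 and that of the tested genes 0.10. Of the members that rose, RPS27L and POLK averaged under 1 FPKM in control and passed the filter through their treated libraries. The 4 members below the filter were FAS (0.46 to 0.98 FPKM), SESN1 (0.55 to 1.07), EDA2R (0 to 0.06) and SPATA18 (0 to 0.05), and no fold is given for them. The SFN libraries lay wholly above control for 4001 of the 12662 tested genes and wholly below it for 3273. For SFN+5-FU these counts were 5767 and 4206, so groups that do not overlap control were common. Among the 29 members they were 6 and 10 with SFN, and 14 and 6 with SFN+5-FU.

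**Figure D1:**
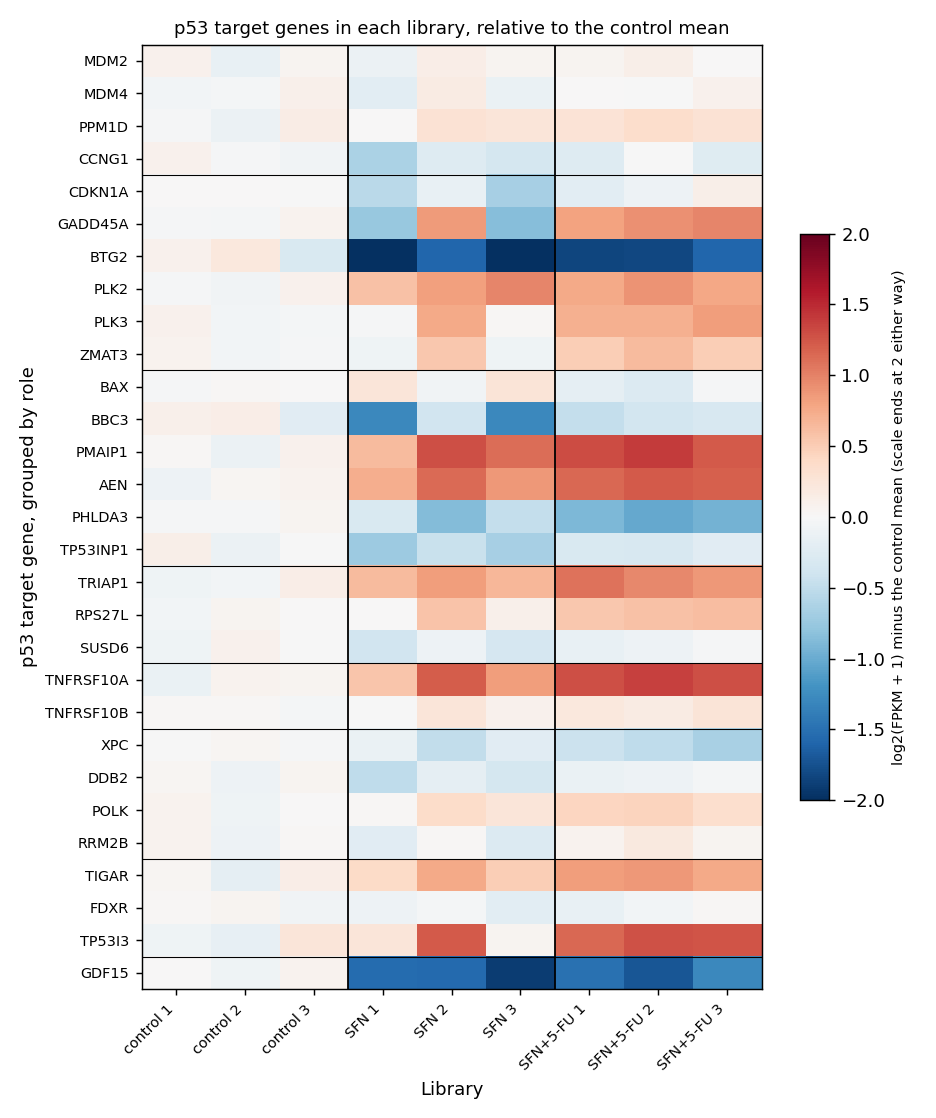
Colour gives log2(FPKM + 1) of each tested p53 target (rows, grouped by role) in each of the 9 libraries (columns), minus the control mean of that gene; red is higher and blue lower. BTG2 and GDF15 were blue in the 6 treated libraries, PMAIP1, AEN and TNFRSF10A red, and in the GADD45A, PLK3, ZMAT3 and TP53I3 rows SFN replicate 2 had the colour of the SFN+5-FU libraries.

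Of the 4 negative feedback regulators, none passed the test in the same direction under each treatment. MDM2 was 2.79, 2.23 and 2.71 FPKM in the control libraries, 2.28, 2.93 and 2.72 in SFN, and 2.70, 2.87 and 2.57 in SFN+5-FU. The groups overlapped, and the log2 fold change of MDM2 was 0.03 with SFN (95% confidence interval -0.19 to 0.24) and 0.06 with SFN+5-FU (-0.16 to 0.27; adjusted p = 0.833 and 0.617). MDM4, the MDM2 relative that masks the activation domain of p53, was not called either, at 0.92 to 1.49 FPKM over the 9 libraries. PPM1D, the phosphatase that reverses damage signalling to p53, rose by 0.31 with SFN+5-FU (adjusted p = 0.0232), from 1.45 ± 0.233 to 2.02 ± 0.0872 FPKM; that call was lost under 5 of the 15 alternatives in which it was tested, among them leaving out control replicate 1 or 2 or SFN+5-FU replicate 2 or 3. CCNG1, the cyclin G1 gene, fell with SFN by 0.41 (adjusted p = 0.0122), from 39.5 ± 2.30 to 29.6 ± 4.14 FPKM, and the call was lost without control replicate 1 (adjusted p = 0.0506). With SFN+5-FU CCNG1 was 35.1 ± 3.57 FPKM and was not called (-0.17, adjusted p = 0.195), but it was called lower under 3 of 16 alternatives (median-of-ratios scaling, library weights, and the GC and length correction), at -0.50 in the lowest.

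The arrest genes divided by gene. CDKN1A encodes p21, the inhibitor of cyclin-dependent kinases. Its level was 68.07, 68.37 and 67.30 FPKM in control, 46.55, 60.90 and 42.62 in SFN, and 58.33, 63.19 and 73.52 in SFN+5-FU. The SFN libraries lay below the control libraries, and the SFN+5-FU libraries lay on either side of them. CDKN1A fell with SFN by 0.45 (SE 0.128, adjusted p = 0.0164) and was not called with SFN+5-FU (-0.07, adjusted p = 0.654). The SFN call was lost without SFN replicate 3 (adjusted p = 0.0550), and without SFN replicate 2 the fall was by 0.60.

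BTG2, an antiproliferative gene of the BTG/TOB family, fell furthest of the 29 tested members. It was 14.49, 15.88 and 10.78 FPKM in control, 2.51, 3.86 and 1.82 in SFN, and 3.06, 3.12 and 3.83 in SFN+5-FU. Every treated library was below every control library. The log2 fold change was -2.00 with SFN (SE 0.198, adjusted p = 8.62e-05) and -1.75 with SFN+5-FU (SE 0.198, adjusted p = 9.04e-05). PLK2, a polo-like kinase, went the other way: 8.36, 8.05 and 9.06 FPKM in control, 13.25, 15.81 and 17.66 in SFN, and 15.00, 16.68 and 15.18 in SFN+5-FU. PLK2 rose by 0.80 and 0.81 (adjusted p = 0.000274 and 0.000147), and its SFN and SFN+5-FU libraries overlapped.

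PLK3, ZMAT3 and GADD45A had 1 pattern in common: SFN replicates 1 and 3 were near or below control, and SFN replicate 2 was as high as the combination. PLK3, another polo-like kinase, was 6.15, 5.47 and 5.53 FPKM in control, 5.59, 10.36 and 5.80 in SFN, and 9.95, 9.97 and 10.99 in SFN+5-FU. It rose with SFN+5-FU by 0.75 (adjusted p = 0.00534) and was not called with SFN, at 0.25, or -0.00 without SFN replicate 2. ZMAT3, a zinc finger RNA-binding protein gene, was 2.52, 2.23 and 2.28 FPKM in control, 2.16, 3.85 and 2.15 in SFN, and 3.72, 4.18 and 3.69 in SFN+5-FU. ZMAT3 rose with SFN+5-FU by 0.54 (adjusted p = 0.0122) and was not called with SFN, at 0.12, or -0.08 without SFN replicate 2. GADD45A, which encodes a growth arrest and repair protein, is shown although it was not called, and was chosen after its values were seen. Its level was 24.65, 24.60 and 26.41 FPKM in control, 14.53, 46.54 and 13.49 in SFN, and 44.57, 48.64 and 50.46 in SFN+5-FU. SFN replicates 1 and 3 were below every control library while replicate 2 was above every one. With the 9 libraries GADD45A was called neither with SFN (-0.25, adjusted p = 0.597) nor with SFN+5-FU (0.90, adjusted p = 0.0568). Without SFN replicate 2 it fell with SFN by 0.80 (adjusted p = 2.67e-05) and rose with SFN+5-FU by 0.90 (adjusted p = 1.71e-06).

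**Figure D2:**
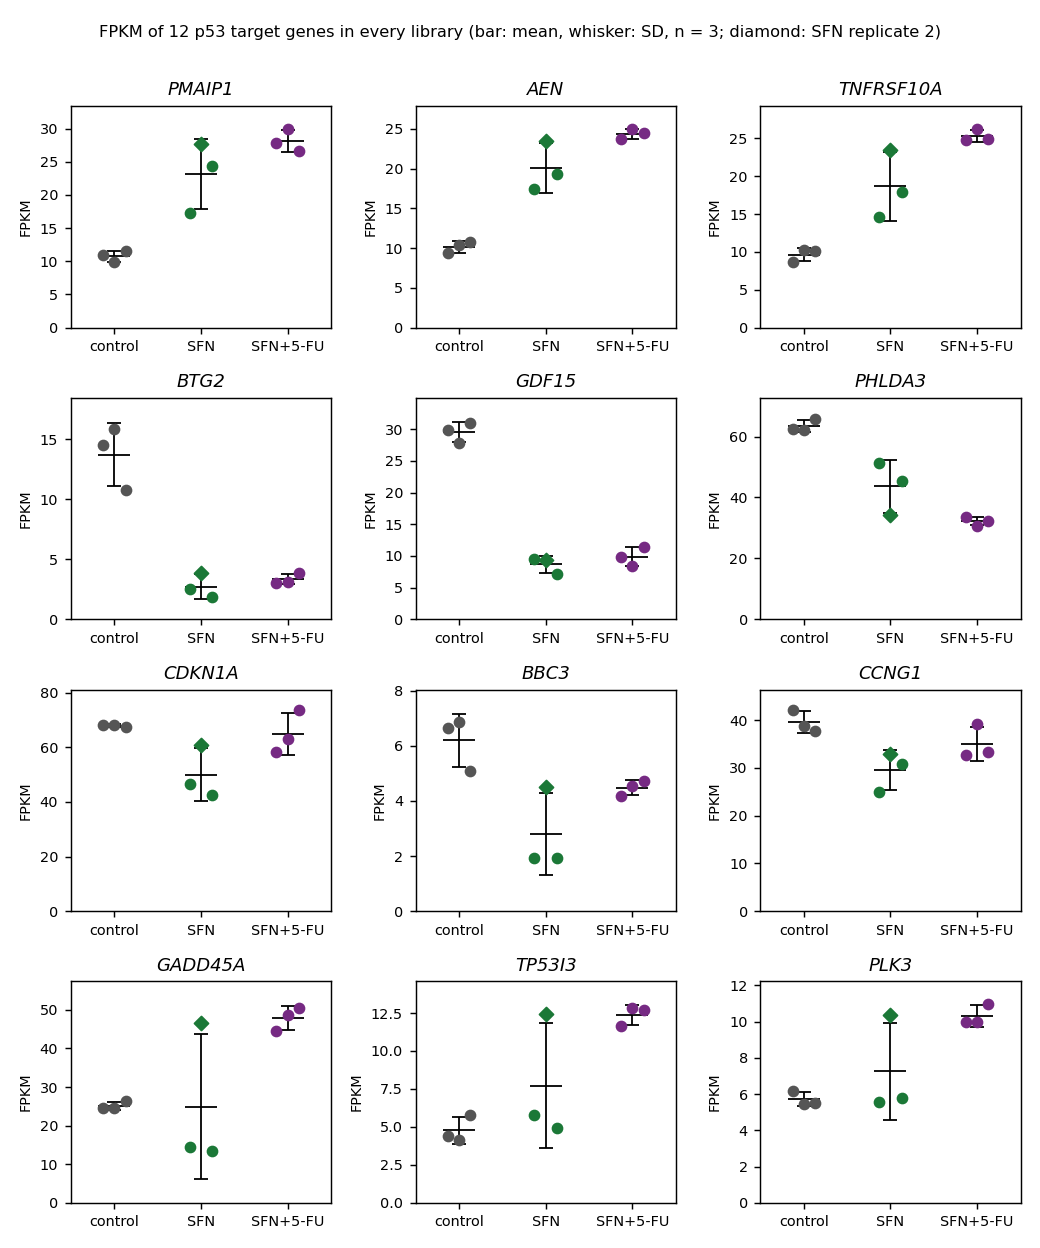
FPKM of 12 p53 targets in each library, with circles for libraries, a diamond for SFN replicate 2, and bars and whiskers for the mean and SD of each group (n = 3, axes from 0). BTG2 and GDF15 dropped in the 6 treated libraries, PMAIP1, AEN and TNFRSF10A rose, and the diamond of GADD45A (46.54 FPKM) sits among the SFN+5-FU libraries while the SFN circles (14.53 and 13.49) sit below control.

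The list groups 6 genes under intrinsic apoptosis, not all of them parts of the mitochondrial route. With SFN 2 of the 6 rose and 3 fell, and with SFN+5-FU 2 rose and 2 fell. Those shares were 83.3% and 66.7%, where 50.0% and 66.2% of the tested genes were called. The BH3-only genes PMAIP1 and BBC3, whose products NOXA and PUMA bind the BCL2 family, differed in direction. PMAIP1 was 10.96, 9.82 and 11.49 FPKM in control, 17.29, 27.72 and 24.42 in SFN, and 27.84, 29.92 and 26.55 in SFN+5-FU. No treated library overlapped control. PMAIP1 rose by 1.02 with SFN (adjusted p = 0.000556) and 1.31 with SFN+5-FU (adjusted p = 8.72e-05). BBC3 was 6.64, 6.86 and 5.10 FPKM in control, 1.92, 4.51 and 1.94 in SFN, and 4.17, 4.56 and 4.73 in SFN+5-FU. The treated libraries were below the control ones, and SFN replicates 1 and 3 were lowest. BBC3 fell with SFN by 0.98 (adjusted p = 0.00589); with SFN+5-FU its change of -0.38 was not called (adjusted p = 0.156), but was without SFN replicate 2 (adjusted p = 0.00565).

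BAX encodes the effector that opens the outer mitochondrial membrane. It was 18.54, 19.19 and 19.06 FPKM in control, 22.67, 17.88 and 22.86 in SFN, and 16.68, 15.41 and 18.69 in SFN+5-FU. BAX was called against control in neither comparison, at 0.14 and -0.16 (adjusted p = 0.268 and 0.201). It rose with SFN by 0.25 without SFN replicate 2 (adjusted p = 0.0153), and it was called lower with SFN+5-FU under library weights (adjusted p = 0.0228). AEN, an apoptosis-enhancing nuclease, was 9.35, 10.38 and 10.72 FPKM in control, 17.44, 23.49 and 19.28 in SFN, and 23.70, 24.99 and 24.46 in SFN+5-FU. AEN rose by 0.91 and 1.19 (adjusted p = 0.000153 and 2.36e-05), with every treated library above control.

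PHLDA3 and TP53INP1 fell under each treatment. PHLDA3, a PH-domain protein that competes with AKT for membrane lipids, was among the most abundant members. It was 62.37, 62.04 and 65.61 FPKM in control, 51.35, 34.25 and 45.42 in SFN, and 33.58, 30.74 and 32.44 in SFN+5-FU. PHLDA3 fell by 0.55 and by 0.95 (adjusted p = 0.00600 and 0.000189), and SFN replicate 2 was the lowest of the SFN libraries. TP53INP1, a nuclear and autophagy protein that acts with p53, was 1.96, 1.51 and 1.70 FPKM in control, 0.64, 1.00 and 0.71 in SFN, and 1.21, 1.18 and 1.31 in SFN+5-FU. The treated libraries lay below control; TP53INP1 fell by 0.61 with SFN (adjusted p = 0.000951) and by 0.28 with SFN+5-FU (adjusted p = 0.0291). The second call was lost under 6 of the 15 alternatives in which TP53INP1 was tested, among them leaving out control replicate 1 or 3 or SFN+5-FU replicate 1 or 2.

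TRIAP1, a small mitochondrial protein gene that opposes apoptosis, was 10.73, 11.09 and 12.78 FPKM in control, 18.47, 21.22 and 18.75 in SFN, and 25.52, 23.40 and 21.72 in SFN+5-FU. The treated libraries did not overlap control, and TRIAP1 rose by 0.71 and 0.97 (adjusted p = 0.000292 and 3.58e-05). RPS27L, a relative of ribosomal protein S27, was 0.91, 1.05 and 0.99 FPKM in control, 0.99, 1.95 and 1.13 in SFN, and 1.88, 1.96 and 2.03 in SFN+5-FU. It rose with SFN+5-FU by 0.58 (adjusted p = 0.00434) and was not called with SFN, at 0.23, or 0.05 without SFN replicate 2, which was at the level of the combination. The control mean of RPS27L was 0.983 FPKM, so it passed the filter only through its treated libraries. RPS27L shares sequence with its paralogue RPS27, so how fragments were divided between them is uncertain. SUSD6, a membrane protein gene, fell with SFN by 0.28 (adjusted p = 0.0314), a call lost under 6 of 16 alternatives, among them leaving out control replicate 2 or 3 or SFN replicate 1 or 3.

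The death receptors for TRAIL carry apoptotic signals from the cell surface. TNFRSF10A (DR4) was 8.65, 10.18 and 10.05 FPKM in control, 14.54, 23.52 and 17.91 in SFN, and 24.78, 26.23 and 24.96 in SFN+5-FU. Every treated library was above control, and TNFRSF10A rose by 0.87 with SFN (adjusted p = 0.00115) and 1.31 with SFN+5-FU (adjusted p = 7.72e-05). TNFRSF10B (DR5) was the more abundant in control, at 25.2 ± 0.552 FPKM, and moved less, to 27.3 ± 2.61 with SFN and 29.4 ± 0.955 with SFN+5-FU. The rise of TNFRSF10B by 0.21 with SFN+5-FU (adjusted p = 0.0278) was lost under 6 of 16 alternatives: median-of-ratios scaling and leaving out any control library or SFN+5-FU replicate 1 or 3. FAS was at 0.503 ± 0.0451, 0.833 ± 0.155 and 0.873 ± 0.0945 FPKM in control, SFN and SFN+5-FU, below the filter.

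Of the 4 repair and nucleotide supply genes, XPC, the damage sensor of global nucleotide excision repair, was 9, 9.37 and 8.95 FPKM in control, 8.21, 6.20 and 7.65 in SFN, and 6.53, 6.13 and 5.47 in SFN+5-FU. XPC fell with SFN+5-FU by 0.52 (adjusted p = 0.00148). Its fall with SFN by 0.28 (adjusted p = 0.0402) was lost under 10 of 16 alternatives, leaving out SFN replicate 2 or 3, any control library, or SFN+5-FU replicate 1 or 2 among them. DDB2, which finds ultraviolet lesions for the same pathway, fell with SFN by 0.35 (adjusted p = 0.0117), from 10.8 ± 0.674 to 8.34 ± 1.09 FPKM, and at 10.1 ± 0.370 FPKM was not called with SFN+5-FU. POLK, a translesion polymerase, rose with SFN+5-FU by 0.40 (adjusted p = 0.00640), at 0.747 ± 0.0907 FPKM in control and 1.30 ± 0.0907 in the combination. The mean of POLK over the 9 libraries was 1.03 FPKM, so it passed the filter only through its treated libraries. RRM2B, the p53-inducible subunit of ribonucleotide reductase, was not called against control with the 9 libraries, at 3.09 to 4.67 FPKM, and without SFN replicate 2 it fell with SFN by 0.25 (adjusted p = 0.0245).

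Of the metabolic members, TIGAR, a phosphatase that lowers glycolytic flux, was 2.78, 2.24 and 3.02 FPKM in control, 3.77, 5.20 and 4.13 in SFN, and 5.52, 5.72 and 5.23 in SFN+5-FU. No treated library overlapped control, and TIGAR rose by 0.54 and 0.82 (adjusted p = 0.00408 and 0.000264). TP53I3, a quinone oxidoreductase, was 4.41, 4.12 and 5.77 FPKM in control, 5.78, 12.44 and 4.96 in SFN, and 11.64, 12.81 and 12.71 in SFN+5-FU. SFN replicate 2 again had the level of the combination, and SFN replicates 1 and 3 that of control. TP53I3 rose with SFN+5-FU by 1.22 (adjusted p = 0.00273) and was not called with SFN (0.51, adjusted p = 0.130). The SFN value of TP53I3 was 0.15 without SFN replicate 2 (adjusted p = 0.297), and without SFN replicate 3 it was 0.74 and called (adjusted p = 0.0446). FDXR, ferredoxin reductase, was 4.82 to 6.02 FPKM and was called in neither comparison.

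GDF15 encodes a secreted stress cytokine. It was 29.82, 27.88 and 31.04 FPKM in control, 9.48, 9.40 and 7.17 in SFN, and 9.91, 8.35 and 11.47 in SFN+5-FU. The treated libraries lay far below control and overlapped each other, and SFN replicate 2 was within the range of the other SFN libraries. GDF15 fell by 1.67 with SFN (SE 0.126, adjusted p = 2.46e-05) and by 1.50 with SFN+5-FU (SE 0.126, adjusted p = 2.20e-05).

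**Figure D3:**
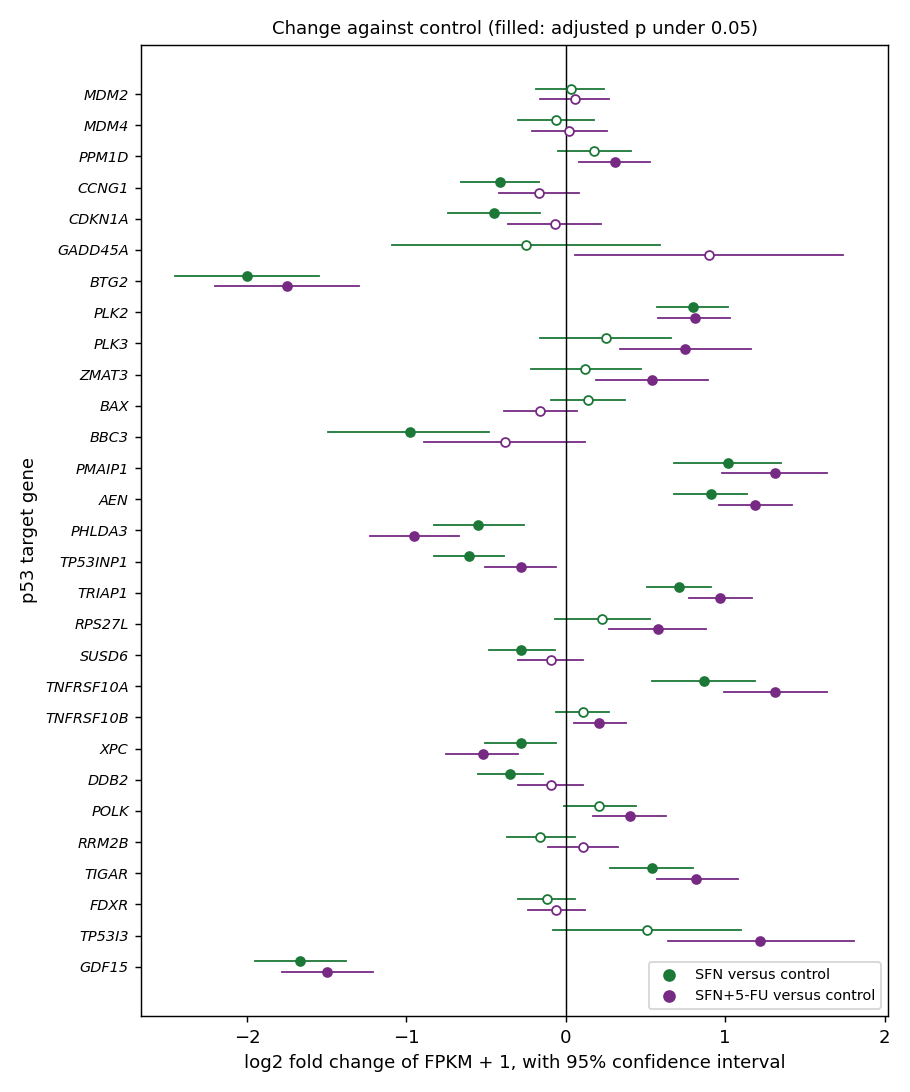
Points are log2 fold changes of FPKM + 1 against control for the 29 tested p53 targets, with 95% confidence intervals; green is SFN, purple SFN+5-FU, and filled points have an adjusted p under 0.05. BTG2 and GDF15 lie furthest to the left, at -2.00 and -1.67 with SFN, and PMAIP1 and TNFRSF10A furthest to the right, each at 1.31 with SFN+5-FU.

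The comparison of SFN+5-FU with SFN sets the groups with and without 5-FU side by side, and its outcome turned on SFN replicate 2. The SFN dose in the combination was not given, so 5-FU and a difference in SFN dose cannot be told apart here. With the 9 libraries 0 of 29 members were called by limma, and 1 of the 12662 tested genes, or 0.00790%. At an unadjusted p under 0.05, 14 members were higher and 3 lower, against 3982 of the tested genes (31.4%), and limma with library weights called 20 members higher and 3 lower, where it called 58.7% of the tested genes. The median log2 fold change of the members was 0.25, against 0.03 for the tested genes, with 26 members positive and 3 negative. Without SFN replicate 2, 20 of 29 members rose and 3 fell, or 79.3%, where 51.2% of the tested genes were called, 29.8% higher and 21.4% lower. The members' median was then 0.34 and that of the tested genes 0.05. The 3 that fell were BAX, by 0.41, PHLDA3, by 0.57, and XPC, by 0.34 (adjusted p = 0.00168, 0.000165 and 0.00433). These 3 genes were singled out after their values were seen, and the left-out library was chosen because it stood apart. Without it the SFN group has 2 libraries.

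Without SFN replicate 2, GADD45A had the largest rise among the members, by 1.70 (SE 0.0655, adjusted p = 5.30e-06), and TP53I3 rose by 1.07 (adjusted p = 0.000144). With the 9 libraries these differences were 1.15 and 0.71, each with an adjusted p of 0.134. BBC3 rose by 0.90, PLK3 by 0.75, ZMAT3 and TNFRSF10A by 0.62, and CDKN1A by 0.53 (adjusted p = 0.000221, 6.59e-05, 0.000209, 0.000730 and 0.00114). CDKN1A and BBC3 had fallen with SFN, and in the combination CDKN1A, at 65.0 ± 7.76 FPKM, overlapped control. MDM2, MDM4, PPM1D, PLK2, FDXR and GDF15 were not called in this comparison with or without the library. Against control, leaving it out gave 7 members higher and 11 lower with SFN, where 56.9% of tested genes were called, and 14 higher and 6 lower with SFN+5-FU, where 74.7% were.

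**Figure D4:**
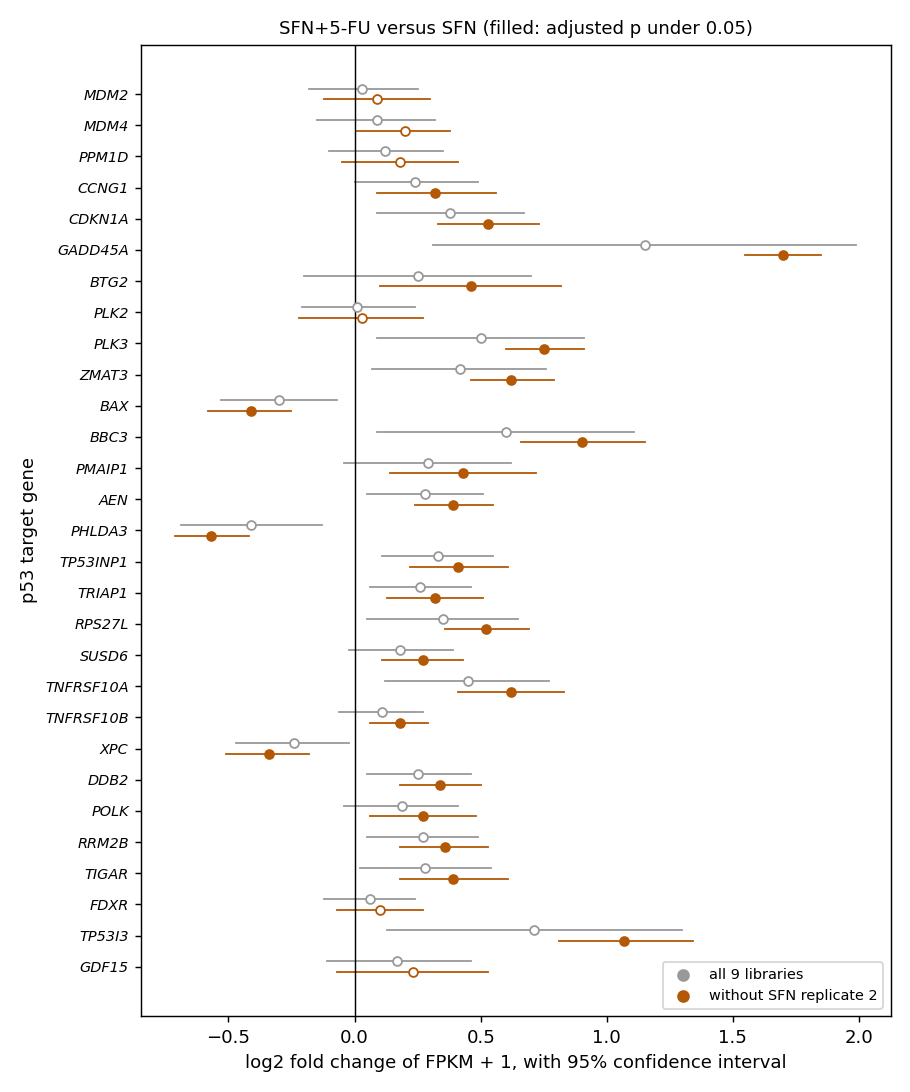
Points are log2 fold changes of FPKM + 1, SFN+5-FU against SFN, with 95% confidence intervals for the 29 tested p53 targets; grey uses 9 libraries, orange leaves out SFN replicate 2, and filled points have an adjusted p under 0.05. No grey point is filled, and 23 orange ones are, 20 of them to the right of 0 with GADD45A furthest out at 1.70.

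A second list of 53 p53 targets, which shares no gene with the 33, gave 47 tested genes. With SFN 8 of them rose and 19 fell, and with SFN+5-FU 13 rose and 18 fell, or 57.4% and 66.0%; the medians were -0.19 and -0.01. Over the tested genes 50.0% and 66.2% were called, 22.5% and 28.0% lower. Without SFN replicate 2, 9 rose and 26 fell with SFN, or 74.5%, where 56.9% of the tested genes were called, and 19 rose and 21 fell with SFN+5-FU, or 85.1%, where 74.7% were. EPHA2, an ephrin receptor kinase, rose from 48.1 ± 2.07 to 94.6 ± 31.2 FPKM with SFN and 137.1 ± 6.98 with SFN+5-FU (adjusted p = 0.00271 and 0.000125). SERTAD1, a transcriptional coregulator, rose by 0.83 and 1.66, and TNFRSF10D, a decoy receptor for TRAIL, by 0.79 and 1.30. The rise of EPHA2 with SFN was by 0.92, and by 0.66 without SFN replicate 2. That of TNFRSF10D was by 0.60 without it. SERTAD1 was 17.73 and 18.13 FPKM in SFN replicates 1 and 3 but 44.55 in replicate 2, and without replicate 2 its rise with SFN was 0.41 (adjusted p = 0.000553). With replicate 2 that rise (adjusted p = 0.0359) was not called under 7 of 16 alternatives, among them leaving out any control or SFN+5-FU library. IGFBP3, a binding protein for insulin-like growth factors, fell from 383.9 ± 24.7 to 129.1 ± 64.7 and 47.4 ± 6.51 FPKM (adjusted p = 0.00357 and 0.000116). Its fall with SFN was by 1.72, and by 1.21 without SFN replicate 2. FUCA1, a lysosomal fucosidase, fell by 1.11 and 1.18, and ORAI3, a calcium channel subunit, by 1.06 and 1.17.

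Of 21 regulators and cofactors of p53, 19 were tested; 6 rose and 3 fell with SFN, and 6 rose and 6 fell with SFN+5-FU. Those shares, 47.4% and 63.2%, were close to the 50.0% and 66.2% of the tested genes. NCL, the nucleolar protein nucleolin, rose from 56.6 ± 2.49 to 108.7 ± 11.0 and 102.1 ± 7.92 FPKM (adjusted p = 6.26e-05 and 5.77e-05). CHEK1, the checkpoint kinase of the ATR pathway, rose by 0.59 and 0.89 (adjusted p = 0.00277 and 0.000186).

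Of 5 factors of the ATF4 and DDIT3 stress response, ATF4, DDIT3 and ATF3 had SFN replicate 2 apart from its group, and TRIB3 and CEBPB did not. ATF4 was 136.38, 134.57 and 133.48 FPKM in control, 71.99, 155.33 and 86.99 in SFN, and 154.03, 163.87 and 173.50 in SFN+5-FU. DDIT3 was 26.12, 27.53 and 24.71 FPKM in control, 15.16, 45.56 and 15.11 in SFN, and 44.38, 56.45 and 58.03 in SFN+5-FU. ATF3 was 5.09, 4.85 and 4.54 FPKM in control, 4.15, 19.09 and 5.77 in SFN, and 19.57, 21.91 and 19.50 in SFN+5-FU. GADD45A, TP53I3, PLK3 and ZMAT3 had their high SFN value in the same library. That is not particular to these genes. The library lay nearer to the SFN+5-FU mean for 29 of 29 tested members and 82.6% of the tested genes. TRIB3, a pseudokinase induced by DDIT3, was 16.70, 16.31 and 15.70 FPKM in SFN, against 39.9 ± 0.770 in control, and CEBPB, a bZIP partner of these factors, was 51.50, 49.31 and 48.39 against 75.3 ± 7.92. TRIB3 fell by 1.25 with SFN and by 1.34 with SFN+5-FU, and CEBPB by 0.58 and by 0.65 (adjusted p = 7.05e-06, 3.07e-06, 0.000420 and 0.000139); these 2 were added after their values were seen. With SFN+5-FU against control, DDIT3 rose by 0.98 and ATF3 by 1.87 (adjusted p = 0.0320 and 0.00285), and ATF4 was not called (0.28, adjusted p = 0.299). The DDIT3 call was lost under 7 of 16 alternatives, among them leaving out any control library or SFN+5-FU replicate 2 or 3. Without SFN replicate 2, ATF4 and DDIT3 fell with SFN by 0.76 and by 0.75, ATF4 rose with SFN+5-FU by 0.28, and ATF3 with SFN was at 0.02 (adjusted p = 8.50e-05, 0.000387, 0.00619 and 0.890). The part of these factors in the members' levels was not tested.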

How the data were processed

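The deposited table holds FPKM to 2 decimals for 41041 Ensembl IDs in 9 libraries. How the authors made the FPKM is known in part: the submitters' processing notes name fastp, StringTie and edgeR, with neither roles nor versions, and the aligner, build and annotation were not given in the sources used here. Libraries were poly(A)-selected and stranded, per the labels' protocols. The read depth is unknown from these values, so no counting error is given; the deposited FPKM summed to 259184 to 272235 per library.

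Symbols were matched by Ensembl ID. Values were tested as log2(FPKM + 1) with limma 3.58.1 (R 4.3.3) and a mean-variance trend, over 12662 genes with a mean of at least 1 FPKM; the 9 libraries shared 1 fit, with 6 residual and 3.2 prior degrees of freedom, two-sided tests and Benjamini-Hochberg adjustment over the tested genes. The p-values measure the spread between these libraries. In a simulation of SFN against control over 12662 genes, 54 of 67 genes changed by 0.5 (log2), 65 of 67 changed by 1 and 66 of 66 changed by 2 were recovered, with 15 false calls. Far fewer genes were changed there than the 50.0% called with SFN in the data, so these rates need not hold for this fit.

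The members, lists and tests were chosen with earlier results of these data known, so no list is independent evidence. Values in every library are given for members called with an absolute log2 fold change of at least 0.5 in a comparison and for MDM2, CDKN1A, BAX, BBC3 and GDF15. Of the other p53 targets, the 3 called with the largest rise and the 3 with the largest fall against control are named, with the 2 regulators with the largest called change, and ATF4, DDIT3 and ATF3. The comparisons against control share the control libraries. Alternatives were 16 fits: other filters, a pseudocount of 0.1, median-of-ratios scaling, library weights, a replicate block, a GC and length correction added after the data were seen, and each of the 9 libraries left out.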

Additional observations from a re-analysis of the deposited data

How the results depend on the processing

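Of 56 calls with the 9 libraries, over 42 genes (the 29 tested members and 13 named others), 0 changed sign under the alternatives in which the gene was tested, 16 or, below the filter at 5 FPKM, 15. GADD45A with SFN, not called with the 9 libraries, ranged from -0.80 to 0.05. With SFN against control the members called ran from 13 of 19 (68.4%, filter at 5 FPKM) to 22 of 29 (75.9%, library weights). Of the tested genes 56.0% and 69.7% were called in those fits. With SFN+5-FU against control they ran from 12 of 19 (63.2%) to 22 of 29 (75.9%) in the same 2 fits, where 70.7% and 79.5% of the tested genes were called. The filter at a mean of 5 FPKM, which tests fewer genes, called 3888 genes with SFN and 4903 with SFN+5-FU against control. With SFN+5-FU against SFN, library weights called 7432 genes and 23 members, and SFN replicate 2 had the lowest weight, 0.0893. Leaving out 1 library at a time gave 0 to 6478 genes and 0 to 23 members in that comparison, the highest without SFN replicate 2. No pairing by replicate number was seen: 1 of 9 same-number pairs had deviations correlated over 0.1 (range -0.143 to 0.107). Pairs from different groups with other numbers ran from -0.247 to 0.182. With 3 libraries a group, and SFN replicate 2 apart from its own, these values cannot exclude pairing. With the replicate block 15 and 18 of 29 members were called against control, where 47.7% and 64.4% of the tested genes were. With SFN+5-FU against SFN it called 0 members and 0 genes. Without a filter the tested genes called split into 3303 higher and 3822 lower with SFN, and 5363 and 5128 with SFN+5-FU, where the main fit gave 3478 and 2855, and 4847 and 3540. Median-of-ratios scaling gave 2977 and 3300, and 4066 and 4152. Depth is unknown, and members near 1 FPKM are the least precise on this scale.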
